A study of Homo sapiens with 6 samples.

Results

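The genes described here encode actin-binding proteins, among them proteins that cap actin filaments. CAPG, GSN, SVIL, FLII and AVIL belong to the gelsolin superfamily, and CAPZA1, CAPZA2 and CAPZB encode the subunits of capping protein. These 8 genes were taken by symbol from the 24489 rows of the deposited expression table, and all 8 passed the filter on low values, as did 12942 rows in all. The set was selected on the difference in CAPG between these same LACTB and vector libraries, so the differences of its members are given as a description with no test.

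RNA-seq was run on LN229 cells, an established human glioblastoma line. The 3 LACTB libraries came from cells transduced to overexpress LACTB, a mitochondrial protein related to bacterial beta-lactamases, and the 3 vector libraries from cells transduced with vector. The aim was to learn what LACTB does in glioma cells. The sources used here do not give the promoter of the vector or say whether the cells were a clone or a pool. They also do not say whether replicate libraries were separate cultures, so each p-value below reflects a spread that may be purely technical.

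LACTB itself had 4268, 4078 and 4203 normalized read counts in the LACTB libraries, against 458, 515 and 393 in the vector libraries. It rose 9.19-fold (log2 difference 3.21, SE 0.13, limma adjusted p = 2.9e-14), and its level matched the label of all 6 libraries. The values are read counts that the authors normalized before deposit. Column totals were 34907394 to 35683869 in LACTB libraries and 38049489 to 41384595 in vector libraries, and the read depth behind them is unknown. Of the 12942 genes tested with limma, 51.9% were called at an adjusted p under 0.05, 27.4% as higher and 24.5% as lower with LACTB. The higher ones were 52.7% of the calls with values as deposited, 39.3% after median centring and 72.2% after scaling to equal column totals. NES, VIM, SOX2 and CD44, which mark glioma and neural progenitor cells, were well above the filter, with the lowest value, that of SOX2, at 2381 to 3003 normalized counts in LACTB libraries and 973 to 1261 in vector libraries. GFAP, the astrocyte filament gene, was low, at 119 to 126 in LACTB libraries and 72.3 to 75.7 in vector libraries. S100B and OLIG2, from the same list of glioma and neural markers, were lower in every LACTB library. S100B was at 11989 to 15986 in LACTB libraries and 29009 to 39915 in vector libraries. OLIG2 was at 256 to 341 in LACTB libraries and 412 to 512 in vector libraries. Of markers of other cell types, PTPRC and CD14 (immune), CDH5 (endothelial), RBFOX3 (neuronal) and EPCAM (epithelial) were below the filter. Others were above it. PECAM1 was at 35.1 to 59.5 in LACTB libraries and 34.2 to 61.5 in vector libraries, VWF at 100.4 to 131 in LACTB libraries and 113 to 195 in vector libraries, and SNAP25 at 289 to 348 in LACTB libraries and 301 to 522 in vector libraries, with ranges that overlapped. The next ranges were apart. The immune marker CD68 was at 1578 to 1673 in LACTB libraries and 1025 to 1118 in vector libraries. KRT8 was at 472 to 495 in LACTB libraries and 954 to 1021 in vector libraries, KRT18 at 2278 to 2752 in LACTB libraries and 4912 to 6137 in vector libraries, and SYT1 at 339 to 436 in LACTB libraries and 83.3 to 143 in vector libraries. The part of all these markers in the results was not tested.

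An actin filament grows mainly at its barbed end, and a protein that caps this end stops the addition and loss of subunits there. Gelsolin superfamily proteins are built from repeats of the gelsolin domain; several bind the barbed end when calcium is high, and some also sever filaments. Capping protein is a heterodimer of an alpha and a beta subunit that binds the barbed end without calcium and is a core part of branched actin networks in lamellipodia, where the balance of capping and growth is known to shape cell migration.

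The promoters of CAPG, SVIL and GSN are shown because these genes had the largest differences among the 8, and because the CAPG and SVIL windows share a short motif although the genes differed in opposite directions. Each is a RefSeq window of 300 bases (GRCh38.p14), from 250 bases before to 50 bases after an annotated start, written 5′ to 3′ on the gene's strand. RefSeq gave 4 windows for CAPG, 6 for GSN, 4 for SVIL and 1 for each other member, 19 in all. Not every window of these genes is printed. The printed CAPG window was the only one of its 4 with a match to any motif searched. The printed GSN window had the most GC boxes of its 6, so neither stands for all starts of its gene. The table holds 1 value per gene, so it does not say which start was used. Capitals mark the motif TGANTCA, which AP-1 factors can bind, in CAPG at chr2:85413967-85414266 (minus strand) and in the SVIL window at chr10:29735752-29736051 (minus strand). In the SVIL window at chr10:29634922-29635221 (minus strand) they mark a CArG box, which serum response factor can bind. In GSN at chr9:121267912-121268211 (plus strand) they mark the GC box GGGCGG on either strand, a motif that SP factors can bind.
CAPG promoter: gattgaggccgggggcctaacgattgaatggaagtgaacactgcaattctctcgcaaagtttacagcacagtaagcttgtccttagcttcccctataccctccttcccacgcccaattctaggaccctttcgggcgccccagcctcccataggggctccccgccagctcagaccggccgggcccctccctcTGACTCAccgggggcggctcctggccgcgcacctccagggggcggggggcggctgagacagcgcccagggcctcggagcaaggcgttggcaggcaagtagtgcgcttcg
SVIL upstream promoter: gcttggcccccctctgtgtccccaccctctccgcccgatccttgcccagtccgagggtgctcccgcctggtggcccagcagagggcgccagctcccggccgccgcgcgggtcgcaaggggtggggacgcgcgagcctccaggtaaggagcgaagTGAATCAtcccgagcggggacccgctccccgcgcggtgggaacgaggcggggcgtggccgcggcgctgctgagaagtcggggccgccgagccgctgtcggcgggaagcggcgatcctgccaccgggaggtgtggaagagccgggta
SVIL inner promoter: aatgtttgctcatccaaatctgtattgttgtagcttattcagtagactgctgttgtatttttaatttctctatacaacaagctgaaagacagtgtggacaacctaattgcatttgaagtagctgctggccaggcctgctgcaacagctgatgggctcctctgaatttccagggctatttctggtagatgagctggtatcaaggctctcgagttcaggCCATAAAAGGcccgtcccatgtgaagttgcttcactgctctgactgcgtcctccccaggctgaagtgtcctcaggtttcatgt
GSN promoter: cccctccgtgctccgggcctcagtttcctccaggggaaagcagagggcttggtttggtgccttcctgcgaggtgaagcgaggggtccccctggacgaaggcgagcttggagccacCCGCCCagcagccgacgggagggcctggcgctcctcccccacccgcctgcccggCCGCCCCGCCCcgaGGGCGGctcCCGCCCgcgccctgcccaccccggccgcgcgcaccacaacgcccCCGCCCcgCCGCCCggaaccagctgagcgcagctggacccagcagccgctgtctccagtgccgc

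The motifs were chosen after the sequences were seen, and a match is no evidence of binding. Both strands were searched. The AP-1 motif stood 59 bases before the start in the CAPG window and 96 bases before the start in the SVIL window; a second, overlapping SVIL window (chr10:29735875-29736174) holds the same letters 27 bases after its start. It was in 3 of the 19 windows of the members and in 7.71% of all 35116 RefSeq windows of this length; windows of 1 gene can overlap. The CAPG window also held GC boxes 48, 20 and 13 bases before the start and the motif CCAAT 138 bases before it. The CArG box of SVIL, 33 bases before that start, was in 1 of the 19 windows and in 1.29% of all windows. The GSN window held 7 GC boxes, 2 of which overlap in 1 run of capitals. GC boxes were in 12 of the 19 windows, from every member but AVIL, and in 45.0% of all windows. CCAAT was in 5 of the 19 windows against 34.6% of all windows, TATAAA in 1 (GSN) against 11.5%, the TEAD motif CATTCC in 1 (FLII) against 14.0%, and the E-box CACGTG in 0 against 7.26%.

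CAPG (ENSG00000042493.15, chromosome 2, 85394748 to 85418432, minus strand, GRCh38) encodes a small gelsolin relative that caps filaments without severing them and is also found in the nucleus. Its longest coding transcript in GENCODE 29 encodes 348 residues. CAPG had 3408, 3012 and 3239 normalized counts in LACTB libraries 1, 2 and 3, against 16616, 13600 and 17441 in vector libraries 1, 2 and 3. Every LACTB library was far below every vector library. The means were 3220 ± 199 in LACTB cells and 15886 ± 2022 in vector cells (SD, n = 3 each), which is 4.93-fold lower with LACTB. The difference of mean log2(value + 1) was -2.30, with an SD within groups of 0.15, and stood at rank 96 of the 12942 genes counted from the most negative. In bulk RNA, fewer cells of a kind and less RNA per cell cannot be told apart.

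GSN (ENSG00000148180.19, chromosome 9, 121207794 to 121332843, plus strand) encodes gelsolin, which severs filaments and caps the new barbed ends in response to calcium and is inhibited by phosphoinositides. It had 19009, 21688 and 22028 normalized counts in LACTB libraries 1, 2 and 3, against 37779, 35669 and 40115 in vector libraries 1, 2 and 3. The groups were well separated, with less spread within a group than between them. The means were 20908 ± 1653 in LACTB cells and 37854 ± 2224 in vector cells (SD, n = 3 each), 1.81-fold lower with LACTB, a log2 difference of -0.86 with an SD within groups of 0.10.

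SVIL (ENSG00000197321.14, chromosome 10, 29457338 to 29736781, minus strand) encodes supervillin, a large membrane-linked member that binds both actin and myosin II and is found in invadopodia and focal adhesions. It had 3508, 3584 and 3900 normalized counts in LACTB libraries 1, 2 and 3, against 1366, 2089 and 1973 in vector libraries 1, 2 and 3. All LACTB libraries were above all vector libraries, and vector library 1 was the lowest. The means were 3664 ± 208 in LACTB cells and 1809 ± 388 in vector cells (SD, n = 3 each), a ratio of 2.03 and a log2 difference of 1.04 with an SD within groups of 0.24. Without vector library 1 the difference was 0.85. SVIL was the only member whose LACTB libraries all lay above the vector libraries.

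FLII (chromosome 17, 18244836 to 18258916, minus strand) encodes flightless, which joins gelsolin repeats to leucine-rich repeats and also acts as a nuclear receptor coactivator. It had 5711, 5248 and 5248 normalized counts in LACTB libraries 1, 2 and 3, against 6453, 6630 and 7675 in vector libraries 1, 2 and 3. The groups did not overlap, with a gap that was small beside that of CAPG. The means were 5402 ± 267 in LACTB cells and 6919 ± 660 in vector cells (SD, n = 3 each), 1.28-fold lower with LACTB, a log2 difference of -0.35 with an SD within groups of 0.11.

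AVIL (chromosome 12, 57797376 to 57818704, minus strand) encodes advillin, a villin relative best known from sensory neurons. It was the lowest member, at 54.7, 43.7 and 65.5 normalized counts in LACTB libraries 1, 2 and 3 and 43.8, 54.4 and 60.5 in vector libraries 1, 2 and 3. The groups overlapped, and the log2 difference was 0.04. It was above 0 when LACTB library 2 was left out (0.19) and below 0 when LACTB library 3 (-0.10) or vector library 1 (-0.09) was. The gene overlaps TSFM on the opposite strand by 10696 bases, and TSFM averaged 2218 normalized counts in LACTB libraries and 3420 in vector libraries. Whether the counting used strand is not given in the sources used here, so reads of the 2 genes cannot be told apart.

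CAPZB (chromosome 1, 19338776 to 19485539, minus strand) encodes the beta subunit of capping protein, which pairs with either alpha subunit. It had 9123, 8504 and 8494 normalized counts in LACTB libraries 1, 2 and 3, against 10177, 9838 and 11141 in vector libraries 1, 2 and 3. The groups did not overlap, but the gap was narrow. The means were 8707 ± 360 in LACTB cells and 10385 ± 676 in vector cells (SD, n = 3 each), a log2 difference of -0.25 with an SD within groups of 0.08.

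CAPZA1 (chromosome 1, 112619173 to 112671619, plus strand) encodes the first of the widely expressed alpha subunits. It had 2415, 2583 and 2640 normalized counts in LACTB libraries 1, 2 and 3, and 3724, 2584 and 2254 in vector libraries 1, 2 and 3. The vector libraries lay on both sides of the LACTB libraries, and their coefficient of variation was 27.0%. The log2 difference was -0.13 over all libraries and 0.08 without vector library 1.

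CAPZA2 (chromosome 7, 116811070 to 116922049, plus strand) encodes the other widely expressed alpha subunit. It had 2273, 2478 and 2487 normalized counts in LACTB libraries 1, 2 and 3, and 2356, 1824 and 1447 in vector libraries 1, 2 and 3. The groups overlapped through vector library 1, and the coefficient of variation of the vector libraries was 24.3%. The log2 difference was 0.39 over all libraries, 0.57 without vector library 1 and 0.22 without vector library 3.

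**Figure D1:**
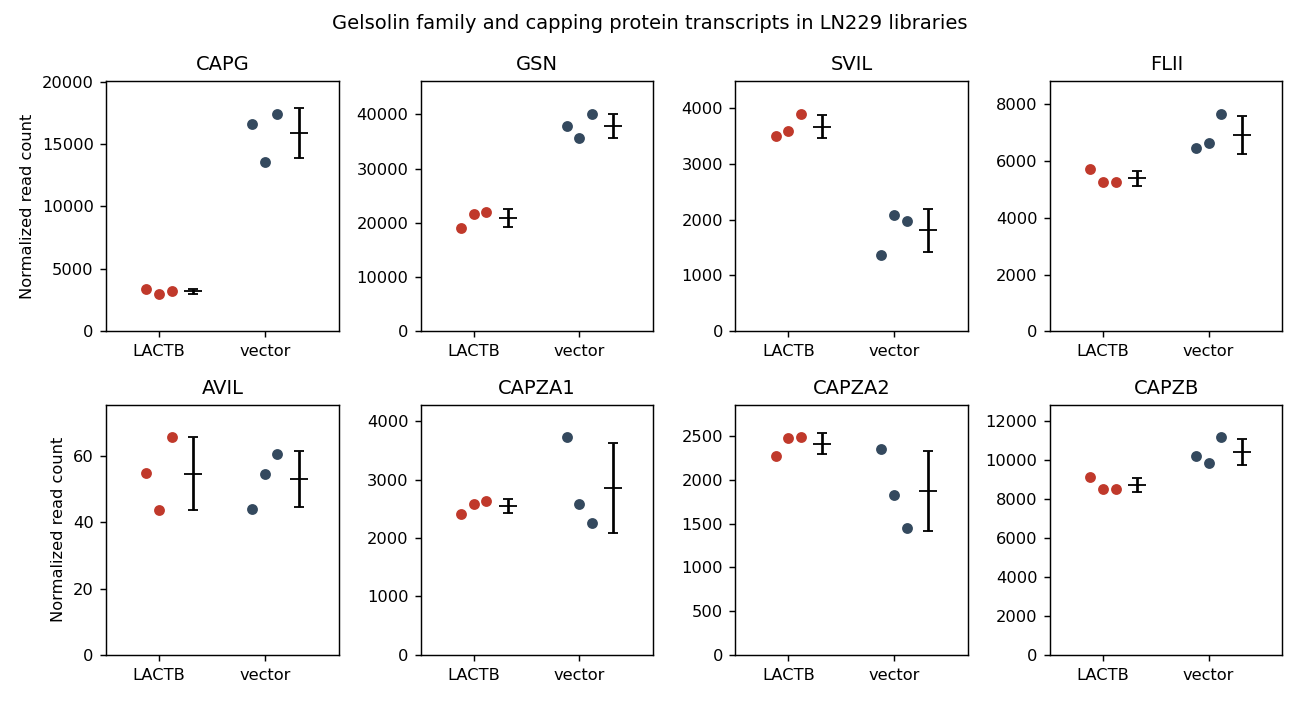
Normalized read counts of the 8 genes in each library, 1 panel per gene, with the 3 LACTB libraries left of the 3 vector libraries and a bar at each group mean ± SD. CAPG, GSN, FLII and CAPZB lie lower in all LACTB libraries, SVIL lies higher in all, and AVIL, CAPZA1 and CAPZA2 overlap.

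In 5 of the 8 genes the groups did not overlap, 1 with LACTB above vector and 4 with LACTB below. Over all tested genes 59.7% did not overlap, 31.1% with LACTB above and 28.7% with LACTB below, so absence of overlap is common in this comparison. The rule used the same contrast, so nothing is read from the members' count. Their median log2 difference was -0.19, beside 0.05 over all tested genes.

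Levels of different genes were compared per kilobase of the longest protein-coding transcript in GENCODE 29. In LACTB cells the order of mean normalized counts per kilobase was GSN at 6258, CAPZB at 4210, CAPG at 2233, FLII at 1245, CAPZA1 at 843, CAPZA2 at 466, SVIL at 447 and AVIL at 18.9. Of these neighbours in the order, CAPZA2 and SVIL had overlapping ranges over the 3 libraries and the others did not. In vector cells the order was GSN at 11330, CAPG at 11016, CAPZB at 5022, FLII at 1595, CAPZA1 at 945, CAPZA2 at 362, SVIL at 221 and AVIL at 18.3. There, the ranges of GSN and CAPG overlapped, so CAPG stood level with GSN in vector cells and below both GSN and CAPZB in LACTB cells. The transcript a cell uses may be shorter than the longest one, which would raise that gene's level per kilobase. The rise would be alike in all 6 libraries only if both groups use the same transcripts, which was not tested.

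**Figure D2:**
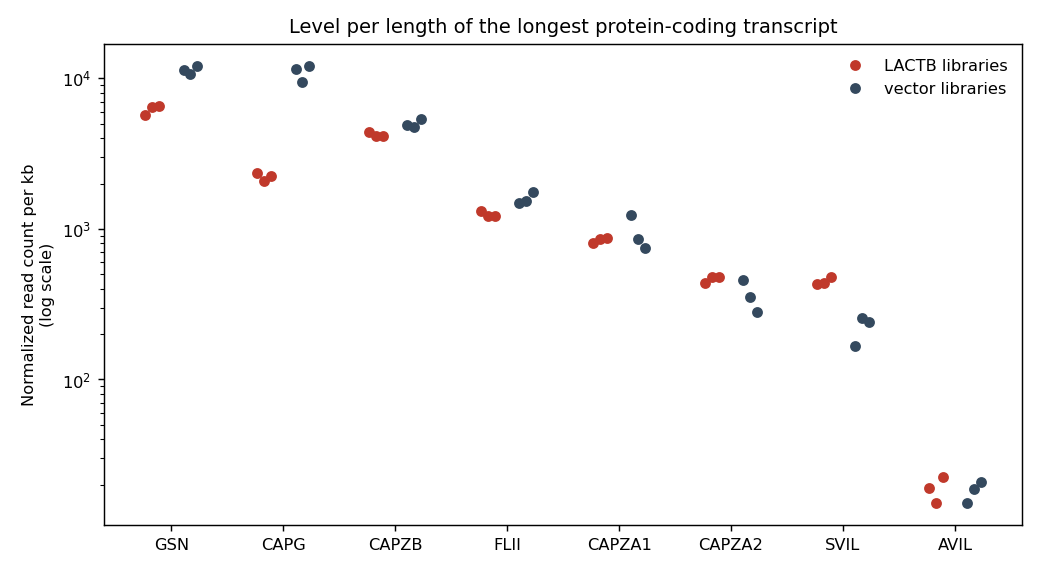
Normalized read counts per kilobase of transcript on a log axis for the 8 genes, with the 3 LACTB libraries left of the 3 vector libraries for each gene. CAPG averages 2233 in LACTB cells and 11016 in vector cells, while GSN is the highest of the 8 in both.

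Within a library, ratios of members do not depend on the scaling by column total. CAPG made up 29.4%, 24.3% and 25.4% of GSN plus CAPG per kilobase in LACTB libraries 1, 2 and 3, against 50.5%, 46.9% and 50.2% in vector libraries 1, 2 and 3. The share was near an even split in vector cells and lower in every LACTB library. SVIL had 1.03, 1.19 and 1.20 normalized counts for each count of CAPG in LACTB libraries 1, 2 and 3, against 0.0822, 0.154 and 0.113 in vector libraries 1, 2 and 3. The groups of this ratio were far apart, as its 2 genes differed in opposite directions.

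Of the alpha subunits, CAPZA2 made up 48.5%, 49.0% and 48.5% of CAPZA1 plus CAPZA2 normalized counts in LACTB libraries 1, 2 and 3, against 38.7%, 41.4% and 39.1% in vector libraries 1, 2 and 3. The groups of this share did not overlap, although those of each gene alone did. Among the vector libraries, both genes were highest in library 1. Their sum was 4688, 5061 and 5127 in LACTB libraries 1, 2 and 3 and 6080, 4408 and 3702 in vector libraries 1, 2 and 3, which overlapped. CAPZB per kilobase stood at 3.56, 3.08 and 3.03 times the summed alpha subunits in LACTB libraries 1, 2 and 3 and at 2.92, 3.94 and 5.25 times in vector libraries 1, 2 and 3, which also overlapped. The 8 genes together took 0.133% ± 0.00517 of the column total in LACTB cells and 0.193% ± 0.0048 in vector cells (SD, n = 3 each). Without GSN and CAPG, the rest took 0.0647% ± 0.000479 in LACTB cells and 0.0594% ± 0.00103 in vector cells (SD, n = 3 each). The groups of that share did not overlap and differed the other way. Both shares divide by column totals, which were 34907394 to 35683869 in LACTB libraries and 38049489 to 41384595 in vector libraries. They thus depend on the scaling by column total and are not differences in normalized counts. Among the rest as deposited, FLII and CAPZB were lower in every LACTB library, SVIL was higher, and AVIL, CAPZA1 and CAPZA2 overlapped.

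Because the column totals differed between the groups, the differences were recomputed under other scalings. Median centring moved the median log2 difference of all tested genes to -0.09, and equal column totals moved it to 0.24; with values as deposited it was 0.05. Both shift every gene alike, so differences relative to that median are fixed: CAPG was at -2.34, GSN at -0.90 and SVIL at 0.99. Quantile normalization gave -2.14 for CAPG, -0.47 for GSN and 1.08 for SVIL relative to its median. CAPZB was at -0.30 relative to the median as deposited and at -0.07 after quantile normalization, and FLII at -0.40 and -0.20. The sign of the CAPZA1 difference flipped under equal column totals (0.06), and that of AVIL under median centring (-0.09) and quantile normalization (-0.05).

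Across all tested genes, the difference also varied with transcript length and GC content. Over 5 bins of 2542 genes each, the median log2 difference was -0.28 for the shortest transcripts and 0.48 for the longest, and 0.45 for the lowest GC content and -0.28 for the highest. CAPG, with a transcript of 1442 bases and a GC content of 60.1%, fell in the shortest bin and the highest GC bin. SVIL, with 8201 bases, fell in the longest bin, and CAPZA2 in the lowest GC bin. After a spline on length and GC was removed from every library, CAPG stood at -1.82, GSN at -0.63, SVIL at 0.80 and FLII at -0.18 on the log2 scale. CAPZA2 then stood at -0.02, CAPZB at 0.06 and CAPZA1 at -0.31, so the sign of CAPZA2 and CAPZB flipped. The source of the trend with length and GC was not tested.

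**Figure D3:**
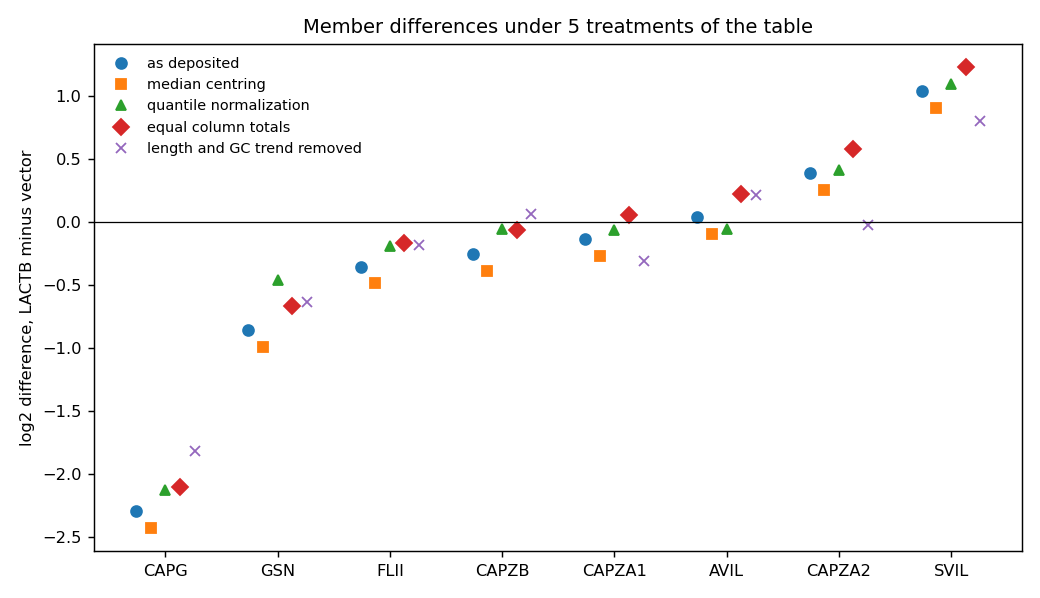
Log2 difference, LACTB minus vector, of the 8 genes with values as deposited, after median centring, quantile normalization and equal column totals, and with length and GC removed. CAPG stays between -2.43 and -1.82 and SVIL between 0.80 and 1.23, while AVIL, CAPZA1, CAPZA2 and CAPZB have points on both sides of 0.

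The pattern of CAPG over the 6 libraries was set beside that of every other tested gene by the root mean square distance of log2 values, each centred on its own mean. The nearest were PLCB2, which encodes a phospholipase C (distance 0.10), EGFL7, a secreted vascular factor (0.14), EEF1A2, a translation elongation factor (0.15), AQP1, the water channel (0.16), and PWWP2B (0.16). EEF1A2 had 685, 506 and 516 normalized counts in LACTB libraries 1, 2 and 3, against 2821, 2850 and 3463 in vector libraries 1, 2 and 3. PLCB2 and AQP1 were far lower in level than CAPG, at 18.9 to 23.3 and 44.6 to 54.0 in LACTB libraries and 100.2 to 118 and 213 to 287 in vector libraries. PLCB2 passed the filter only through the vector libraries, so its likeness carries no weight. All of the genes listed as nearest were found by the same difference, so their likeness is a description.

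On chromosome 2 the 2 tested genes on either side of CAPG differed less than it did. RETSAT, the retinol saturase gene 40.1 kb before it, fell (1802 normalized counts in LACTB cells, 2504 in vector cells, log2 difference -0.47, limma adjusted p = 0.0011). ELMOD3, 3.00 kb away, did not pass (0.20), nor did MAT2A (-0.14) or GGCX (0.11) on the other side. The 50 tested genes around CAPG, taken by order along the chromosome with as many before as after it, had a median log2 difference of -0.05. GSN overlaps RAB14 on the opposite strand by 15221 bases, and RAB14 had 5006 normalized counts in LACTB cells and 5129 in vector cells. GSN also overlaps the antisense gene GSN-AS1, at 107 in LACTB cells and 71.6 in vector cells. SVIL has a pseudogene, SVIL2P, that could share reads with it.

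The factors that act on the same filament ends and on capping protein were read from lists of 125 other actin genes, of which 123 were in the table and 110 were tested. Of the 110, 40 rose, 22 fell and 48 did not pass the test with LACTB, beside 27.4% rising and 24.5% falling of all genes. Their median log2 difference was 0.08, beside 0.05 over all genes. With equal column totals 50 rose and 14 fell, beside 4974 rising and 1913 falling of all 12942 genes. With median centring 29 rose and 25 fell, beside 2684 rising and 4144 falling of all genes. The list counts thus moved in the same direction as those of all genes. The as-deposited shares of all genes also apply beside the counts of each list below.

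Regulators of capping protein carry a motif that binds it, or bind it otherwise, and recruit it or loosen it from barbed ends. Of 10 listed, 7 were tested and all 7 passed, with 6 higher and 1 lower and a median log2 difference of 0.75, and these counts held under the other scalings and with length and GC removed. With no filter 6 were higher and 3 lower. Of all tested genes, 27.4% were higher and 24.5% lower with values as deposited. CARMIL1, which uncaps barbed ends at the leading edge, had 702 ± 42.8 normalized counts in LACTB cells and 375 ± 51.5 in vector cells (SD, n = 3 each; log2 difference 0.91, SE 0.15, limma adjusted p = 4.9e-05). SH3KBP1, the endocytic adaptor CIN85, had 3936 ± 78.0 in LACTB cells and 2419 ± 291 in vector cells (0.71, adjusted p = 3.0e-05 by limma). WASHC2C, a WASH complex subunit that binds capping protein on endosomes, had 1212 ± 122 in LACTB cells and 676 ± 79.8 in vector cells (0.84, adjusted p = 3.2e-05 by limma). WASHC2A is its near-identical copy (0.75), and reads may be split between them. The others that rose were CD2AP (1.03) and MTPN, which sequesters capping protein (0.62). PLEKHO1, which binds capping protein at the membrane, fell (-0.70).

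The list of other barbed-end proteins held relatives of gelsolin, twinfilins, adducins and EPS8 proteins. Of 10 tested, 3 rose and 2 fell, with a median of -0.11. ADD2, an adducin of the membrane skeleton, rose to 391 ± 1.59 normalized counts in LACTB cells, against 217 ± 24.4 in vector cells (log2 difference 0.85, limma adjusted p = 0.00033). The twinfilins, which bind both monomers and capping protein, split: TWF1 was at 0.71 (adjusted p = 0.0025) and TWF2 at -0.46 (adjusted p = 0.0026), though TWF2 was at 0.04 with length and GC removed. EPS8 (0.30) and EPS8L2 (-0.70), chosen after their values were seen, were the other calls. The EPS8 call was lost under 8 alternatives, median centring and leaving out any LACTB library among them, and that of EPS8L2 under 4, equal column totals among them. Scinderin (SCIN), the relative closest to gelsolin, had 122 ± 38.8 in LACTB cells and 91.0 ± 7.08 in vector cells and did not pass. VIL1 was below the filter, and CAPZA3, the alpha subunit of the testis, was not analysed here.

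At the pointed end, tropomodulins cap the slow-growing side of the filament. TMOD3 rose (1121 ± 52.7 normalized counts in LACTB cells, 730 ± 81.9 in vector cells, log2 difference 0.62, limma adjusted p = 0.00054), as did TMOD2 (0.62, chosen after its values were seen), whose call was lost under 5 alternatives. No gene of the 4 tested passed with length and GC removed. Capping protein is also a subunit of the dynactin and WASH complexes. Among 9 dynactin genes DCTN4 rose (0.58) and DCTN3 (-0.52) and ACTR1B (-0.42) fell, and the calls of DCTN3 and ACTR1B were lost with length and GC removed. DCTN4 was then at 0.27. Among 4 WASH genes WASHC4 (0.86) and WASHC5 (0.38) rose, but with length and GC removed WASHC4 was at 0.39 and WASHC5 did not pass. LRRFIP1 (0.38) and LRRFIP2 (0.39), which bind flightless, both rose with values as deposited, but neither passed after median centring or with length and GC removed.

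Of 18 tested severing and disassembly genes, 1 rose and 6 fell, with a median of 0.03. CORO1B, a coronin that acts at branched networks, had 6514 ± 117 normalized counts in LACTB cells and 11390 ± 1290 in vector cells (log2 difference -0.80, limma adjusted p = 5.3e-06). CORO1A (-0.99) and GMFG (-2.14), whose product takes branches apart, were the lowest of the list's differences. GMFG averaged 17.2 in LACTB cells and 74.0 in vector cells, so it passed the filter only through the vector libraries, and its call carries no weight; with a filter at 5 CPM the list had 1 higher and 5 lower. With length and GC removed CORO1B was at -0.30 and CORO1A at -0.49, and both still passed. CFL1, the main cofilin, fell (-0.62), and SSH1, a phosphatase that activates cofilin, rose (0.62); both were chosen after their values were seen. The counts depended on scaling: 6 rose and 5 fell with equal column totals, and 4 rose and 8 fell with length and GC removed.

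Of the 20 tested genes of the Arp2/3 complex and its activators, 5 rose and 4 fell, with a median of 0.01. The counts depended on processing: 8 rose and 4 fell after quantile normalization, and 3 rose and 8 fell with length and GC removed. ARPC4, a subunit of the complex, fell to 11575 ± 287 normalized counts in LACTB cells, against 21811 ± 2836 in vector cells (log2 difference -0.91, limma adjusted p = 2.0e-06), and BRK1, a small WAVE complex subunit, fell by 0.64 on the log2 scale. NCKAP1, a large WAVE complex subunit, was at 1.03 and did not pass with length and GC removed (0.22, limma adjusted p = 0.084). Formins and Ena/VASP proteins, which lengthen filaments at barbed ends that capping protein would close, had 6 higher and 4 lower of 15 and a median of 0.37. With equal column totals 8 were higher and 1 lower, and 2 were lower when any library but vector library 1 was left out. With length and GC removed, 5 were higher and 3 lower, and the median was 0.16. DIAPH3 (1.13), FMNL2 (1.08) and ENAH (0.85) rose, and ENAH did not pass with length and GC removed (0.16, limma adjusted p = 0.13).

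Bundling, crosslinking and tropomyosin genes held 10 higher and none lower of 12 tested, with a median of 0.40. Of all tested genes, 27.4% were higher and 24.5% lower. TPM1, a tropomyosin that coats filaments, had 25950 ± 2296 normalized counts in LACTB cells and 7957 ± 857 in vector cells (log2 difference 1.71, SE 0.12, limma adjusted p = 1.6e-10). LCP1, the plastin of leukocytes, rose to 751 ± 77.3 in LACTB cells, against 213 ± 55.6 in vector cells (1.84, limma adjusted p = 4.4e-08). Of the immune markers, PTPRC and CD14 were below the filter and CD68 was higher in every LACTB library; their part in the LCP1 difference was not tested. FSCN1, the bundler of filopodia, rose to 27310 ± 2679 in LACTB cells, against 16001 ± 2407 in vector cells (0.78, limma adjusted p = 2.8e-05). TPM1, LCP1 and FSCN1 passed under every setting tried. The count of 10 was 5 after median centring and 6 without LACTB library 2 or 3. After median centring, 2684 of all 12942 tested genes were higher.

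Among the actins, ACTG1 fell with values as deposited (172318 ± 13270 normalized counts in LACTB cells, 227186 ± 15877 in vector cells, log2 difference -0.40, limma adjusted p = 0.0083) but did not pass with equal column totals, with length and GC removed, or without LACTB library 2, LACTB library 3 or vector library 3. ACTB did not pass as deposited (222788 ± 12606 in LACTB cells, 183541 ± 17209 in vector cells, 0.28, limma adjusted p = 0.054) but passed with equal column totals (0.47). ACTG2, the enteric smooth muscle actin, had 66.4 ± 5.4 in LACTB cells and 15.2 ± 7.68 in vector cells (log2 difference 2.15). It passed the filter only through the LACTB libraries, so its call carries no weight. Actins are near-identical in coding sequence and have many pseudogenes, so reads may be split among them. Of the monomer binders, TMSB10 fell (-0.55) and TMSB4X rose (0.45); TMSB10 did not pass after quantile normalization or with length and GC removed, and TMSB4X did not after median centring or without LACTB library 1, vector library 2 or vector library 3.

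**Figure D4:**
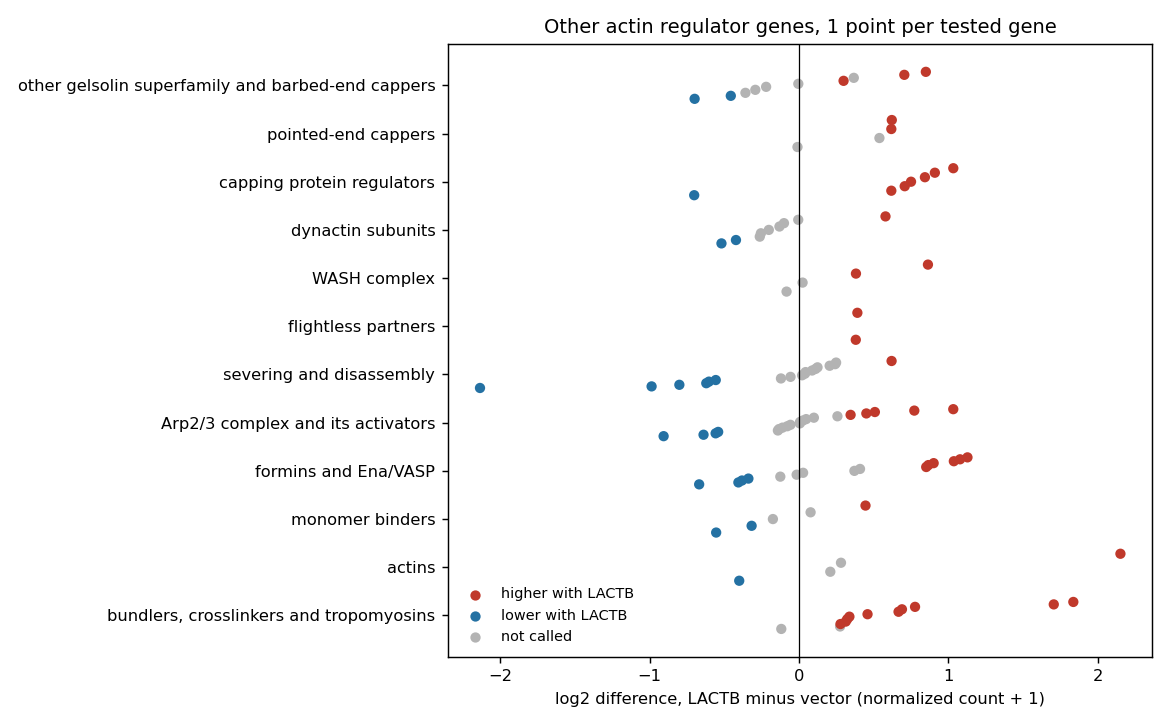
Log2 difference, LACTB minus vector, of the 110 tested actin genes in 12 lists, 1 point per gene, red where limma called it higher, blue where lower and grey where not called. Of the 7 capping protein regulators 6 are red and 1 is blue. Of the 12 bundlers, crosslinkers and tropomyosins 10 are red and none is blue. Over all tested genes 27.4% were called higher and 24.5% lower.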

How the data were processed

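The submitters' processing notes name HISAT2 and hg38; the counter, annotation, strand setting and normalization are not stated in the sources at hand. The deposited signal values are normalized read counts, 1 per gene and library, that are not whole numbers. Dividing low values by the best of many steps tried for 1 read gave whole numbers (within 0.05) for 41.2% to 64.4% of them. Chance gives 10% for a step fixed in advance, and more for the best of many. The rest were not whole, so counts could not be rebuilt and a count model was left out. The written design had foreseen either counts or normalized values, and its branch for normalized values was applied.

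Values were taken as log2(value + 1), a scale that understates the change of low genes. Testing covered the 12942 genes whose mean reached 1 CPM (37.7 normalized counts), by limma 3.58.1 under R 4.3.3 (with its trend and robust options, two-sided, Benjamini-Hochberg over all tested genes, threshold 0.05). Where a symbol stood on more than 1 row, as 9 did, the row with the higher mean kept it. The fit was tested on simulated data. Lengths and GC came from GENCODE release 29 (94.8% of symbols matched), of the longest protein-coding transcript, for 98.2% of tested genes. Plots used matplotlib 3.10.9 and Python 3.11.15.

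The 8 genes and the 12 lists were chosen with earlier results of these data known. Named genes are the 8, LACTB, up to 3 called genes with the smallest adjusted p in each list (at most 30), ACTB and ACTG1, the regulators of capping protein, the 5 genes most like CAPG, and the 2 tested genes on either side of each of the 8. Alternatives were other scalings, filters, pseudocounts, limma settings, the replicate number as a block, removal of length and GC, and leaving out each library.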

Additional observations from a re-analysis of the deposited data

How the results depend on the processing

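Under the alternatives, 111 values of the 8 genes moved by less than the spread within groups and 16 by more; AVIL had no value with a filter at 5 CPM. CAPG moved by more with quantile normalization (-2.13), equal column totals (-2.10) and length and GC removed (-1.82), and kept its direction under all. Genes lower with LACTB numbered 3177 as deposited and 1913 with equal column totals, and those of the actin lists 22 and 14. LACTB itself passed under every alternative. Of 31 named genes of the lists, 18 kept their call under every alternative that gave a value and 13 changed under at least 1; ACTG2 and GMFG had no value with a filter at 5 CPM. TWF2 reversed to 0.036 with length and GC removed, against -0.46. WASHC5 lost its call under 6 alternatives, TMSB4X and LRRFIP2 under 5 each and ACTB gained one under 8. Some list counts moved by more than 1.5 times: pointed-end cappers between 0 and 3 higher, dynactin between 1 and 4 lower, Arp2/3 between 3 and 8 higher, and severing between 1 and 6 higher. The libraries showed no clear pairing by replicate number, but 3 libraries per group cannot exclude it. Deviations of same-numbered libraries correlated at 0.0227, 0.183 and 0.00441. LACTB library 2 correlated best with vector library 2 (0.183). LACTB libraries 1 and 3 correlated better with vector libraries 3 (0.160) and 2 (0.0194). With the replicate block 6878 genes were called, against 6720. The depth behind each value is unknown.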

Other observations

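The genes around CAPZA2 on chromosome 7 were mostly higher with LACTB. The 50 tested genes around CAPZA2 were taken by order along the chromosome, as many before as after it, at any distance. Of these, 29 rose and 2 fell, beside 27.4% rising and 24.5% falling of all genes. Their median log2 difference was 0.59, beside 0.05 over all genes. These values are as deposited, and the window was not recomputed with length and GC removed. CAV1, which coats caveolae, had 5881 normalized counts in LACTB cells and 2040 in vector cells (1.54, limma adjusted p = 2.0e-09). MET, the hepatocyte growth factor receptor, lies 12.7 kb before CAPZA2. It had 2021 in LACTB cells and 997 in vector cells (1.03, limma adjusted p = 1.1e-06). On the other side of CAPZA2, ST7 (0.17) and LSM8 (-0.13) did not pass. The window medians were 0.33 around CAPZA1 and 0.29 around SVIL, and between -0.10 and 0.09 around the other 5 genes. Next to CAPZB, NBL1, a secreted BMP antagonist, had 796 in LACTB cells and 4866 in vector cells (-2.61, limma adjusted p = 5.4e-13). Of all 32 tested genes that flank the 8 genes, 2 on either side of each, 5 rose, 9 fell and 18 did not pass. Of all tested genes, 27.4% rose and 24.5% fell, so calls among neighbours are common in this comparison.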
